A study of Mus musculus with 12 samples.

Results

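Synbindin was silenced in resting macrophages and the transcriptome was compared with that of control cells across all genes. The comparison takes 6 of the 12 libraries of the study: 3 from cells given an siRNA against Synbindin and 3 from cells given a control siRNA, all collected without lipopolysaccharide (LPS, 0 h). The members were chosen by their labels alone, so no measured value entered the choice. The cells were RAW264.7, an established mouse macrophage-like line, at passages 3 to 5, grown in DMEM with serum, and total RNA was sequenced in strand-specific libraries. The other 6 libraries came from cells with the same siRNAs after 4 h of LPS at 100 ng/ml. They serve here as other libraries in which each difference can be read again, although they also enter the estimate of the spread. Whether same-numbered libraries without and after LPS came from the same transfection is not told by the labels. Silencing by siRNA lowers a transcript and does not delete the gene. The sources used here do not give the siRNA's sequence, the number of different siRNAs or the time between transfection and collection. The labels do not tell whether the replicates were transfected separately. A p-value here therefore reflects the spread among these particular samples, and that spread may be technical.

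Synbindin, encoded by Trappc4, is a core subunit of the TRAPP complexes. These complexes tether transport vesicles to their target membranes and activate Rab GTPases on the route from the endoplasmic reticulum (ER) to the Golgi and beyond. Synbindin has also been described as a partner of the kinase ERK. Macrophages secrete large amounts of lysozyme, which passes along this route, and they sense LPS through Toll-like receptor 4. Without LPS their cytokine genes are mostly silent.

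Values are FPKM (fragments per kilobase of transcript, scaled for library size), a level per transcript length. All 6 libraries carried macrophage transcripts. Csf1r, the receptor for the macrophage growth factor, lay between 313 and 350 FPKM and Cd68, a macrophage lysosomal protein, between 416 and 482 FPKM. The macrophage genes Mertk and Mrc1 were near 0 and Marco was listed at 0 in all 6. The defining genes of fibroblasts and epithelial cells were near 0. Summed FPKM of the T and NK cell list was 0.180 to 0.827, and that of the B cell list was 3.89 to 5.36, nearly all from Blnk. The neutrophil list summed to 1.71 to 2.30 FPKM in control and 2.78 to 4.33 FPKM in silenced libraries, nearly all from the growth factor receptor gene Csf3r, and did not overlap between groups. Each library held 12151 to 12351 genes with at least 1 FPKM. Depth, estimated from the low values, was 7.86, 7.88 and 11.6 M (mega) fragments in the control and 16.2, 7.36 and 12.4 M in the silenced libraries, and is rough. Mitochondrially encoded transcripts took 17.1% to 18.7% of FPKM in control and 15.3% to 16.8% in silenced libraries, and whether this difference moved other values was not tested. Along the first principal component of the 6 libraries, with 26.4% of the variance, the silenced libraries lay at 11.99 to 15.26 and the control libraries at -26.6, -15.0 and -0.320, so control replicate 3 was the control nearest to the silenced cells.

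Trappc4 itself (ENSMUSG00000032112) was lower in all 3 silenced libraries. It had 14.1, 13.1 and 12.5 FPKM with the control siRNA and 4.35, 7.17 and 6.15 FPKM with the Synbindin siRNA, so the groups did not overlap and 44.5% of the control mean remained. With limma, a linear model that shares information on the spread across genes, the log2 fold change was -1.07 ± 0.19 (SE, 95% interval -1.49 to -0.64) with an adjusted p of 0.0558. By an exact permutation test p was 0.1, and groups of 3 cannot give a smaller value. In bulk RNA, fewer cells with the transcript and less transcript per cell cannot be told apart. Trappc4 was 1 of 14 tested members of the TRAPP complex list. In this list 0 members were called by limma (0 higher and 1 lower at an unadjusted p under 0.05) and 2 had groups that did not overlap, Trappc4 and Trappc10, a subunit of one TRAPP form (11.8, 11.4 and 12.5 FPKM against 11.3, 10.7 and 10.6 FPKM). The core subunits Trappc3 and Trappc1 had log2 fold changes of -0.14 ± 0.09 and -0.17 ± 0.12, with overlapping groups. The median of the list was -0.06, beside 0.01 over all genes tested, of which 8.35% were lower without overlap.

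Of 13078 genes tested, 28 were called (adjusted p under 0.05), which is 0.214% of them. There were 16 higher (0.122%) and 12 lower (0.0918%) in silenced cells. All 28 had groups that did not overlap, as had 9.86% of all genes tested in the higher and 8.35% in the lower direction. An unadjusted p under 0.05 was reached by 859 higher (6.57%) and 706 lower genes (5.4%), and list counts without a call are given beside it. The genes that rose included lysozymes and other secreted or granule proteins (Lyz1, Lyz2, Srgn, Ccl9, Igf1) and 2 cytoskeletal genes (Gas2l3, Dynll1). The genes that fell included a nuclear import adaptor (Kpna1), parts of the small RNA machinery (Ago1, Sidt2), an antiviral enzyme (Oas3) and an osteoclast fusion gene (Ocstamp). Fold changes are differences of log2(FPKM + 1), so for low genes they are smaller than the ratio of the levels. The count was 3 and 5 without control replicate 1 or 2, 10 and 4 without silenced replicate 1 or 2, and 41 without control replicate 3. LPS-treated libraries also enter the estimate of the spread, and the count was 8 and 11 without their control replicates 1 and 2 and 7 without their silenced replicate 2. Kpna1, Lyz1 and Gas2l3 were called in all 12 fits that left out 1 library, and the other 25 in 1 to 10 of them.

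**Figure D1:**
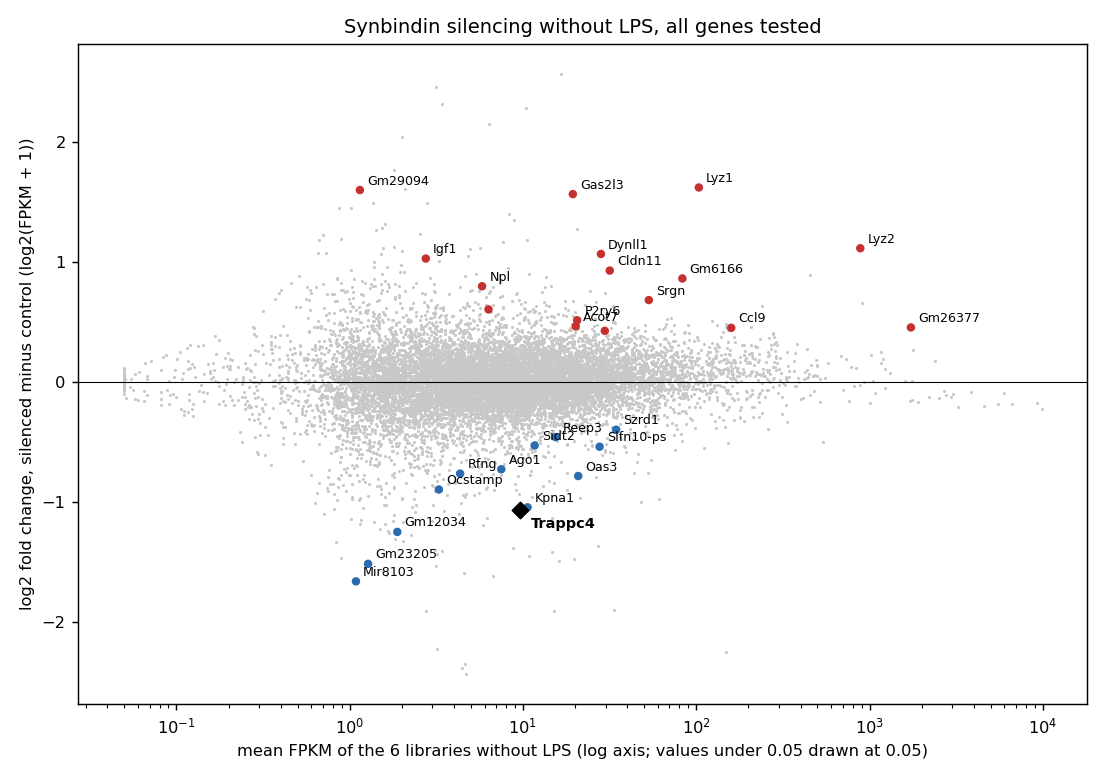
Log2 fold change (silenced minus control, log2(FPKM + 1) scale) against the mean FPKM of the 6 libraries without LPS on a log axis, 1 point per gene for 13078 genes; red and blue points are the 16 genes called higher and the 12 called lower, most of them named, and the black diamond is Trappc4. The called genes range from Lyz1 at 1.62 down to Mir8103 at -1.66, and some uncalled genes lie farther from 0.

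Both lysozyme genes rose. Lyz1 and Lyz2 encode secreted enzymes that cleave bacterial cell wall peptidoglycan, and Lyz2 is a standard marker of the macrophage lineage. They are neighbours on the minus strand of chromosome 10 (GRCm38), Lyz1 at 117287797 to 117292868 and Lyz2 at 117277331 to 117282321. Their coding sequences have 447 bases each and differ at 22 positions (95.1% identity), so fragments from one can be assigned to the other. Their first 300 coding bases, which hold 20 of these positions, are shown because the pair cannot be read as independent genes. The bases that differ are in capitals (GRCm38, GENCODE M21 transcripts, 5′ to 3′).
Lyz1: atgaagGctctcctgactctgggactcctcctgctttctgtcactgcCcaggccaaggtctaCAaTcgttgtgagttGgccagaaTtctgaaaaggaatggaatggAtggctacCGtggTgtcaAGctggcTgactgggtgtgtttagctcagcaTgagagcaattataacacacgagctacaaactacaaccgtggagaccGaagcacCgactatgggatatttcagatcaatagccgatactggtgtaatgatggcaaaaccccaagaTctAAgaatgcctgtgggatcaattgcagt
Lyz2: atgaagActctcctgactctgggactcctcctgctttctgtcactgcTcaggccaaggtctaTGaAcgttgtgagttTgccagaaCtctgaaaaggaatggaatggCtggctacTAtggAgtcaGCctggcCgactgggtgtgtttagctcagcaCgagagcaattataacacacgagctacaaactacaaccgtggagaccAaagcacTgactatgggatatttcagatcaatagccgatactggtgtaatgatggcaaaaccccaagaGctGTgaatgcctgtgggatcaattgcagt

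Lyz1 had 45.8, 46.5 and 59.3 FPKM in control and 157, 165 and 148 FPKM in silenced libraries. The lowest silenced library had more than 2 times the level of the highest control library, and Lyz1 rose by 1.62 ± 0.17 (adjusted p = 0.00428). Lyz2 had 567, 508 and 588 FPKM in control and 1340, 1344 and 958 FPKM in silenced libraries. The groups did not overlap although silenced replicate 3 was lower than the other silenced libraries, and Lyz2 rose by 1.11 ± 0.17 (adjusted p = 0.0283). Lyz2 was thus the more abundant gene in every library and Lyz1 the one with the larger fold. Across 13 other settings of the analysis Lyz1 was called in 13 and Lyz2 in 7.

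The genes also resemble each other upstream, and whether this bears on their values was not tested. The 250 bases before the start of each (RefSeq, GRCm38.p6, minus strand, chr10:117292869-117293118 for Lyz1 and chr10:117282273-117282522 for Lyz2) are 79.4% identical when aligned, and the 50 bases next to the start are identical. Capitals mark bases with no match in the other gene. No motif was tested in them beyond those named further on.
Lyz1 upstream: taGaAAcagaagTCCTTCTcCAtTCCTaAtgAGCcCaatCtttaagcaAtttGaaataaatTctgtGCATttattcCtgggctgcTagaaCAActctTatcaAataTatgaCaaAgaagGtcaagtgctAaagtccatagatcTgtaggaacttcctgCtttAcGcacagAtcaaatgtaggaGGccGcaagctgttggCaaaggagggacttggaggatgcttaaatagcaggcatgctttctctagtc
Lyz2 upstream: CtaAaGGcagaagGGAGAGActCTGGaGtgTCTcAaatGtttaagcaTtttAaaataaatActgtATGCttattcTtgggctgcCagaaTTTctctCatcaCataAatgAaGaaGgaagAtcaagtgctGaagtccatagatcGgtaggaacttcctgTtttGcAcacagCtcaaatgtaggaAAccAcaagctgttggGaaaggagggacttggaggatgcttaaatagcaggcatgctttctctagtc

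Other secreted and granule proteins rose by less on the log2(FPKM + 1) scale. As a ratio of group means, however, Igf1 (2.75) rose by more than Lyz2 (2.19). Srgn encodes serglycin, the proteoglycan that packs granule contents. It had 37.6, 38.5 and 46.1 FPKM in control and 66.8, 64.8 and 65.6 FPKM in silenced libraries, and rose by 0.68 ± 0.10 (adjusted p = 0.0283). The silenced libraries were nearly equal and all above the controls. Igf1, a growth factor that macrophages secrete, was a low transcript that rose from 1.55, 1.15 and 1.70 to 4.69, 3.86 and 3.55 FPKM (1.03 ± 0.16, adjusted p = 0.0349). Ccl9, a chemokine made constitutively by macrophages, rose from 141, 129 and 133 to 182, 198 and 172 FPKM (0.45 ± 0.07, adjusted p = 0.0390). Of 11 genes listed as lysozymes and granule proteins 4 were tested, and 3 were called higher (Lyz1, Lyz2 and Srgn), beside 0.122% of all genes. The list was drawn up with earlier results of these data known, and Lyz1 and Lyz2 cannot be read as independent genes. Lcn2, the other tested member, had a log2 fold change of 0.07, and the median of the 4 was 0.90. In the chemokine list 1 of 17 tested members was called, Ccl9. Groups did not overlap for 4 higher and 1 lower, beside 9.86% and 8.35% of all genes. A further limit is that 6 of the 17 stayed under 1 FPKM in all 6 libraries. Ccl2, which attracts monocytes and is named here after its values were seen, was that lower member, with 25.3, 23.7 and 13.3 FPKM in control and 8.36, 11.7 and 6.35 FPKM in silenced libraries (-1.13 ± 0.24, adjusted p = 0.1002). It was called lower without control replicate 3, its lowest control library.

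**Figure D2:**
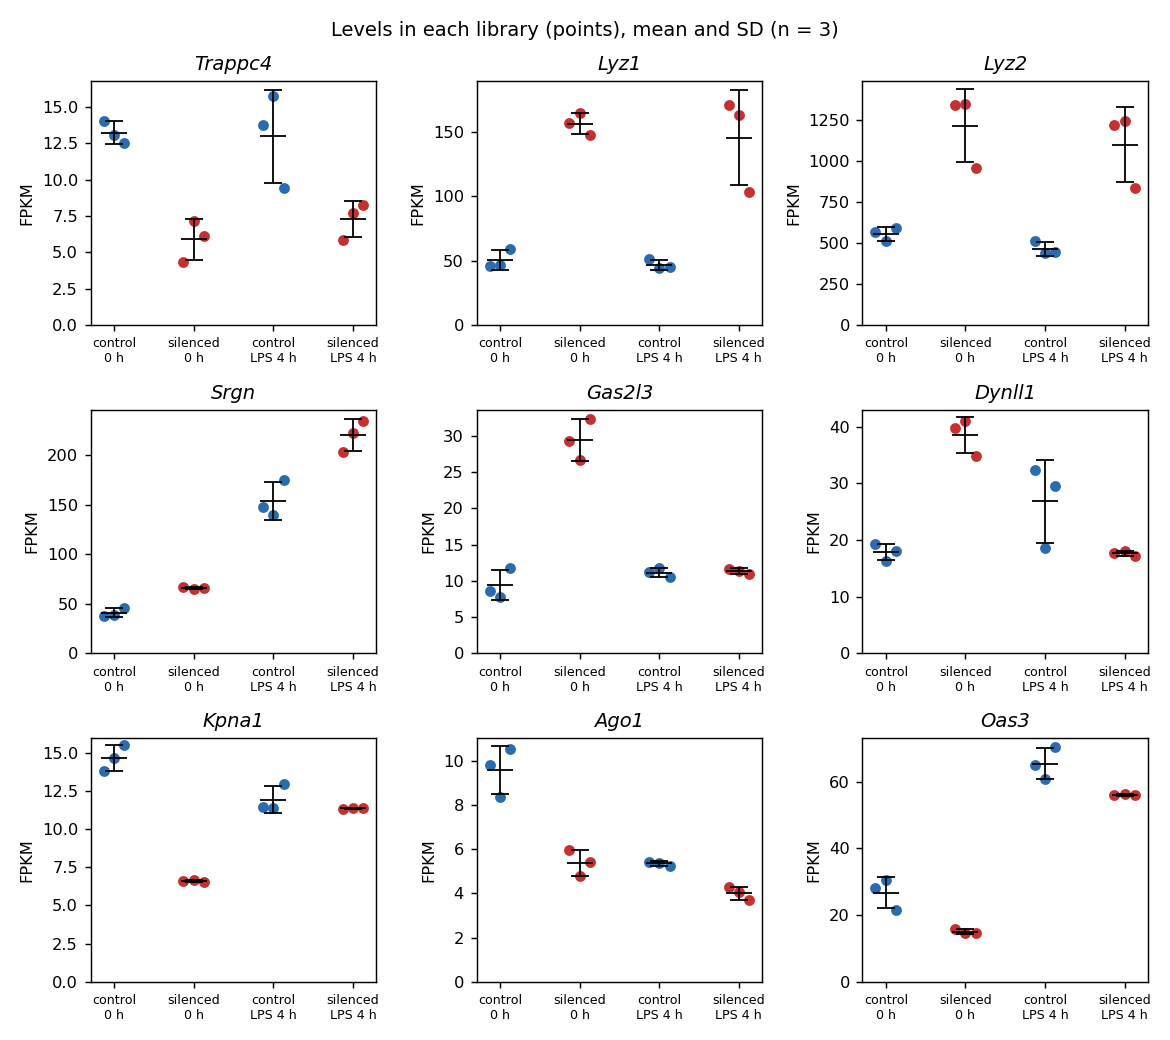
FPKM in each of the 12 libraries (points) with mean and SD (black, n = 3) for Trappc4 and 8 called genes; blue is control siRNA, red Synbindin siRNA, without LPS on the left of each panel and after 4 h of LPS on the right, and every axis starts at 0. Lyz1, Lyz2 and Srgn are higher in silenced cells in both pairs of groups, whereas the groups of Gas2l3 and Kpna1 overlap after LPS.

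Gas2l3 and Dynll1 were the cytoskeletal genes that rose. Gas2l3 (chromosome 10, 89408823 to 89443967) links actin filaments to microtubules and is known for its part in cell division. It had 8.59, 7.80 and 11.7 FPKM in control and 29.3, 26.6 and 32.4 FPKM in silenced libraries, a gain of 1.57 ± 0.13 (adjusted p = 0.000459). Every silenced library was over 2-fold above every control library. Of 5 tested GAS2-family and spectraplakin genes it was the only one called. Of 37 tested G2/M and mitosis genes Gas2l3 was likewise the only one called, and the median of that list was 0.04.

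Dynll1 (chromosome 5, 115297110 to 115300999) encodes a small dynein light chain that also serves as a hub for dimerising other proteins. It had 19.2, 16.3 and 18.0 FPKM in control and 39.7, 40.9 and 34.8 FPKM in silenced libraries, with no overlap, and rose by 1.07 ± 0.16 (adjusted p = 0.0283). Its close relative Dynll2 had a log2 fold change of 0.09 ± 0.29, with overlapping groups. In the dynein and dynactin list 1 of 21 tested members was called. A further 5 were lower without overlap, including Dync1h1, the motor heavy chain (-0.39 ± 0.15, adjusted p = 0.362), and 4 Dynlt1 light chain copies, whose near-identical sequences make each value uncertain. Actr10, a dynactin subunit, was higher without overlap (0.12 ± 0.10, adjusted p = 0.671). Over all genes 9.86% were higher and 8.35% lower without overlap. Dynll1 and Dynll2 are also related copies, and how fragments with several matches were treated is not stated.

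Kpna1 had the smallest p of all genes. It encodes importin alpha 5, an adaptor that carries cargo proteins into the nucleus (chromosome 16, 35978750 to 36037131, plus strand). It had 13.8, 14.7 and 15.5 FPKM in control and 6.57, 6.67 and 6.54 FPKM in silenced libraries. The silenced libraries were nearly equal, each under all controls, and Kpna1 fell by 1.04 on the log2 scale (SE 0.08, adjusted p = 0.000341), so 45.0% of the control mean remained. In the karyopherin list Kpna1 was the only member called of 23 tested. Other adaptors and the carrier Kpnb1 lay near 0: Kpna2 at 0.02 ± 0.10, Kpna3 at 0.07 ± 0.09, Kpna4 at 0.01 ± 0.12, Kpna6 at -0.04 ± 0.09 and Kpnb1 at 0.05 ± 0.09. The median of the list was 0.01. Kpna1 overlaps an antisense gene, Gm15564, whose mean was 7.66 FPKM with the control siRNA and 0.07 FPKM with the Synbindin siRNA. Only these means are given, so the spread among libraries is not shown, and Gm15564 was not among the called genes. Whether it bears on the Kpna1 values was not tested. The sources used here do not state which strand setting was used in counting.

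Members of the small RNA machinery were lower in silenced cells. This machinery loads siRNAs and microRNAs onto argonaute proteins, which then repress matching transcripts. Ago1 (chromosome 4, 126435012 to 126468583) had 9.84, 8.40 and 10.6 FPKM in control and 5.97, 4.80 and 5.42 FPKM in silenced libraries. The groups did not overlap and it fell by 0.73 (SE 0.10, adjusted p = 0.0282). Sidt2, a lysosomal membrane protein described as a transporter of RNA, had 13.8, 12.9 and 15.3 FPKM in control and 8.69, 9.02 and 10.4 FPKM in silenced libraries, and fell by 0.53 (SE 0.09, adjusted p = 0.0471). Of 20 tested members of the list, 2 were called lower and 0 higher. Groups did not overlap for 7 members, all lower (Ago1, Sidt2, Ago2, Ago3, Tnrc6a, Tnrc6b and Xpo5), beside 8.35% of all genes. The Tnrc6 genes encode GW182 proteins, partners of the argonautes, and Tnrc6a had 22.2, 22.5 and 20.6 FPKM against 16.3, 17.4 and 15.7 FPKM (-0.38 ± 0.09, adjusted p = 0.136). Ago2, the argonaute that slices its targets, had a log2 fold change of -0.23 ± 0.12 (adjusted p = 0.476). Dicer1, which cuts microRNA precursors, had -0.08 ± 0.11 with overlapping groups, and the median of the list was -0.08. Ago1 was called in 7 and Sidt2 in 1 of the 12 fits without 1 library. Control cells received an siRNA too, and whether the Synbindin and control siRNAs differ in their effect on this machinery was not tested.

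Oas3 fell, and most interferon-stimulated genes were lower with control replicate 3 apart from the other controls. Oas3 makes the oligoadenylates that switch on RNase L when double-stranded RNA is sensed. It had 28.1, 30.4 and 21.6 FPKM in control and 15.8, 14.5 and 14.5 FPKM in silenced libraries, and fell by 0.78 (SE 0.11, adjusted p = 0.0282). Its nearest relative on the chromosome, Oas2, had 34.6, 33.0 and 19.1 FPKM against 12.8, 15.5 and 13.3 FPKM (-0.97 ± 0.22, adjusted p = 0.115). In both genes control replicate 3 was the lowest control, still above the silenced libraries. Of 66 tested interferon-stimulated genes, 5 had positive fold changes, beside 51.5% of all genes, and the median was -0.38. Yet 1 was called, and groups did not overlap for 8 lower and 1 higher, beside 8.35% and 9.86% of all genes. Of the 66, 8 stayed under 1 FPKM in all 6 libraries and passed the filter through the LPS-treated libraries. The fold changes of these 8 had little room to differ from 0. In the LPS-treated libraries the list lay on the other side of 0, with 52 of 66 positive and a median of 0.15.

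The list's medians by library, as log2(FPKM + 1) minus the control mean, differed among the controls. They were 0.22, 0.24 and -0.44 in control and -0.26, -0.29 and -0.57 in silenced libraries, so control replicate 3 lay within the silenced range. Isg15, a ubiquitin-like protein induced by interferon, had 21.3, 25.1 and 9.73 FPKM in control and 10.3, 11.8 and 6.77 FPKM in silenced libraries, with overlap. Irf7, the factor that amplifies interferon production, had 9.14, 7.22 and 5.63 FPKM against 4.28, 4.59 and 3.54 FPKM, without overlap (-0.68 ± 0.16, adjusted p = 0.127). Oas2, Isg15 and Irf7 were named after their values were seen. Without control replicate 3 the list's median was -0.61 and 8 members were called lower. Without silenced replicate 3 Oas3 alone was called, with a median of -0.27. Without control replicate 1 or 2 no member was called, and the medians were -0.29 and -0.21. Among sensors of double-stranded RNA and other nucleic acids, Dhx58 showed the same split of the controls. It had 10.4, 8.96 and 5.11 FPKM in control and 3.98, 5.22 and 4.19 FPKM in silenced libraries. In that list 0 of 11 members were called (0 higher and 5 lower at an unadjusted p under 0.05). The 5 were Zbp1, Dhx58, Ddx58, Ifih1 and Eif2ak2, all also in the interferon-stimulated list, so they are not a second set of genes. Outside that overlap Tlr7 had 0.67, Tlr9 0.13 and Tmem173 0.01, and Tlr3 had -0.12, Mb21d1 -0.12 and Mavs -0.03.

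Interferon acts on many of these genes through the interferon-stimulated response element (ISRE), searched here as GAAA, 2 bases of any kind and GAAA on both strands of the 250 bases before the start. It was found in 26 of 49 interferon-stimulated genes with a promoter in the RefSeq table (53.1%) and in 3.46% of all 27025 promoters. Among the 7 of these genes whose groups did not overlap, 3 held it. The Oas3 sequence (GRCm38.p6, minus strand, chr5:120777660-120777909) is shown as the list's called member, with its match in capitals, 75 bases before the start.
Oas3 upstream: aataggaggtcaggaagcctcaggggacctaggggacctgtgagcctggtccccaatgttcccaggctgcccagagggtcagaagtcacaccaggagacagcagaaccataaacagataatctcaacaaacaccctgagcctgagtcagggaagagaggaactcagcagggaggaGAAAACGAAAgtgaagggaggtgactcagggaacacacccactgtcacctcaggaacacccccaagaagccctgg

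Ocstamp and Rfng fell from low levels. Ocstamp encodes a membrane protein needed when osteoclast precursors fuse, a fate that RAW264.7 cells can take. It had 4.08, 4.65 and 4.85 FPKM in control and 1.51, 1.70 and 2.84 FPKM in silenced libraries, and fell by 0.90 (SE 0.15, adjusted p = 0.0390). Of 16 tested osteoclast genes 1 was called, and 7 were lower without overlap and 0 higher, beside 8.35% and 9.86% of all genes. Among the 7 were Acp5, the tartrate-resistant phosphatase (24.9, 29.0 and 24.6 FPKM against 20.7, 21.3 and 19.7 FPKM), and Nfatc1, the master factor of osteoclasts (-0.44 ± 0.25, adjusted p = 0.507). Dcstamp, the fusion partner of Ocstamp, went the other way with overlap (0.60 ± 0.22, adjusted p = 0.327). The median of the list was -0.11. Rfng, a glycosyltransferase that modifies Notch receptors, had 5.21, 5.88 and 6.06 FPKM in control and 2.71, 3.34 and 2.84 FPKM in silenced libraries, and fell by 0.76 (SE 0.13, adjusted p = 0.0477). The other fringe genes, Lfng and Mfng, had log2 fold changes of 0.04 ± 0.09 and 0.03 ± 0.11.

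Npl, the lyase that breaks down sialic acid, rose, with 4.22, 4.51 and 3.21 FPKM in control and 7.65, 8.58 and 6.67 FPKM in silenced libraries (0.80 ± 0.13, adjusted p = 0.0390). It was the only one called of 18 tested genes of sialic acid metabolism. Cldn11, a tight junction protein, had 18.4, 21.1 and 25.1 FPKM against 38.5, 48.9 and 38.1 FPKM (0.93 ± 0.16, adjusted p = 0.0477). For both genes all silenced libraries lay above all controls. P2ry6, the receptor for the danger signal UDP, rose by 0.51 ± 0.08, from 15.8 to 17.5 FPKM in control to 23.5 to 25.8 FPKM in silenced libraries (adjusted p = 0.0283). Acot7, an acyl-CoA thioesterase, rose by 0.46 ± 0.07 (adjusted p = 0.0377). Reep3, a protein that shapes the ER in dividing cells, fell by 0.46 (SE 0.07, adjusted p = 0.0283), from 17.0 to 18.7 FPKM in control to 12.5 to 13.4 FPKM in silenced libraries. Szrd1 fell by 0.40 (SE 0.06, adjusted p = 0.0283), the smallest change called, from 38.1 to 40.5 FPKM to 29.0 to 30.5 FPKM. For scale, the median SE over all genes was 0.14.

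The remaining 7 calls are short, unnamed or pseudogene records and are less certain. Gm26377, Gm23205 and Mir8103 have 108, 103 and 107 exon bases and lie within Eef1a1, Rnf14 and Osbpl7 on the same strand, so fragments of the host gene can be assigned to them. Gm26377 rose by 0.46 ± 0.06, and its host Eef1a1, the translation elongation factor, had 2235, 2234 and 2239 FPKM in control and 2503, 2535 and 2552 FPKM in silenced libraries (0.18 ± 0.06, adjusted p = 0.256). Mir8103 had 2.55, 2.10 and 1.87 FPKM in control and was listed at 0 in all 3 silenced libraries. Gm23205 was listed at 0 in 2 silenced libraries. Gm29094 had 0.113 FPKM in 1 control library, was listed at 0 in the other controls and had 3.49, 1.44 and 1.82 FPKM in silenced libraries. It overlaps Bcl2a1b, a survival gene, on the same strand (means of 31.9 FPKM with the control and 35.6 FPKM with the Synbindin siRNA). Gm6166 (0.86 ± 0.11), Gm12034 (-1.25 ± 0.19) and Slfn10-ps (-0.54 ± 0.08) are pseudogenes, which can take fragments of their parent genes.

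The LPS-treated libraries share no sample with those just compared. They did enter the estimate of the spread by which the 28 genes were called, so they are not fully separate from that choice. Same-numbered libraries without and after LPS may also come from the same transfection, which the labels do not tell. Agreement after LPS may therefore not be an independent repeat. After LPS 22 of the 28 genes had a fold change in the same direction, 13 of the 16 that rose and 9 of the 12 that fell. The share with the same direction over all genes was not counted. Groups did not overlap in the same direction for 10 of the 16 and 7 of the 12, beside 7.62% and 11.3% of all genes. In the opposite direction they did not overlap for 2 of the 16 and 1 of the 12. After LPS 94 genes were called (0.719%), 41 higher (0.314%) and 53 lower (0.405%), 6 of which are among the 28: Lyz1 (1.59 ± 0.17), Lyz2 (1.22 ± 0.17), Srgn (0.52 ± 0.10), Gm6166 (0.67 ± 0.11), Ocstamp (-0.98 ± 0.15) and Sidt2 (-0.54 ± 0.09). Lyz1 had 51.2, 44.4 and 44.6 FPKM with the control and 171, 163 and 103 FPKM with the Synbindin siRNA after LPS, close to the levels without LPS. Srgn was higher after LPS in both groups (139 to 175 and 204 to 235 FPKM), and Ocstamp too (27.0 to 30.3 and 13.1 to 15.8 FPKM), so for these genes the difference was present at both levels.

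A test of the difference between the contrasts called 8 genes (0.0612%), of which 4 are among the 28. After LPS Kpna1 was 11.5, 11.4 and 12.96 FPKM in control and 11.3, 11.4 and 11.4 FPKM in silenced libraries, and its fold change there was -0.06 ± 0.08 (difference 0.98 ± 0.11, adjusted p = 0.0161). Gas2l3 was 11.2, 11.7 and 10.46 FPKM against 11.7, 11.4 and 10.9 FPKM after LPS (difference -1.54 ± 0.18, adjusted p = 0.0161). For both genes the groups overlapped after LPS. Dynll1 was lower in silenced cells after LPS, with 32.3, 18.6 and 29.6 FPKM in control and 17.6, 18.1 and 17.2 FPKM in silenced libraries (difference -1.61 ± 0.23, adjusted p = 0.0388). The short record Gm26377 was the last of the 4 (adjusted p = 0.0388). Over 24 other fits the difference was called in 19 for Kpna1, 20 for Gas2l3, 6 for Dynll1 and 4 for Gm26377. For the other 24 genes the difference did not pass, which does not show that their fold changes were equal.

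**Figure D3:**
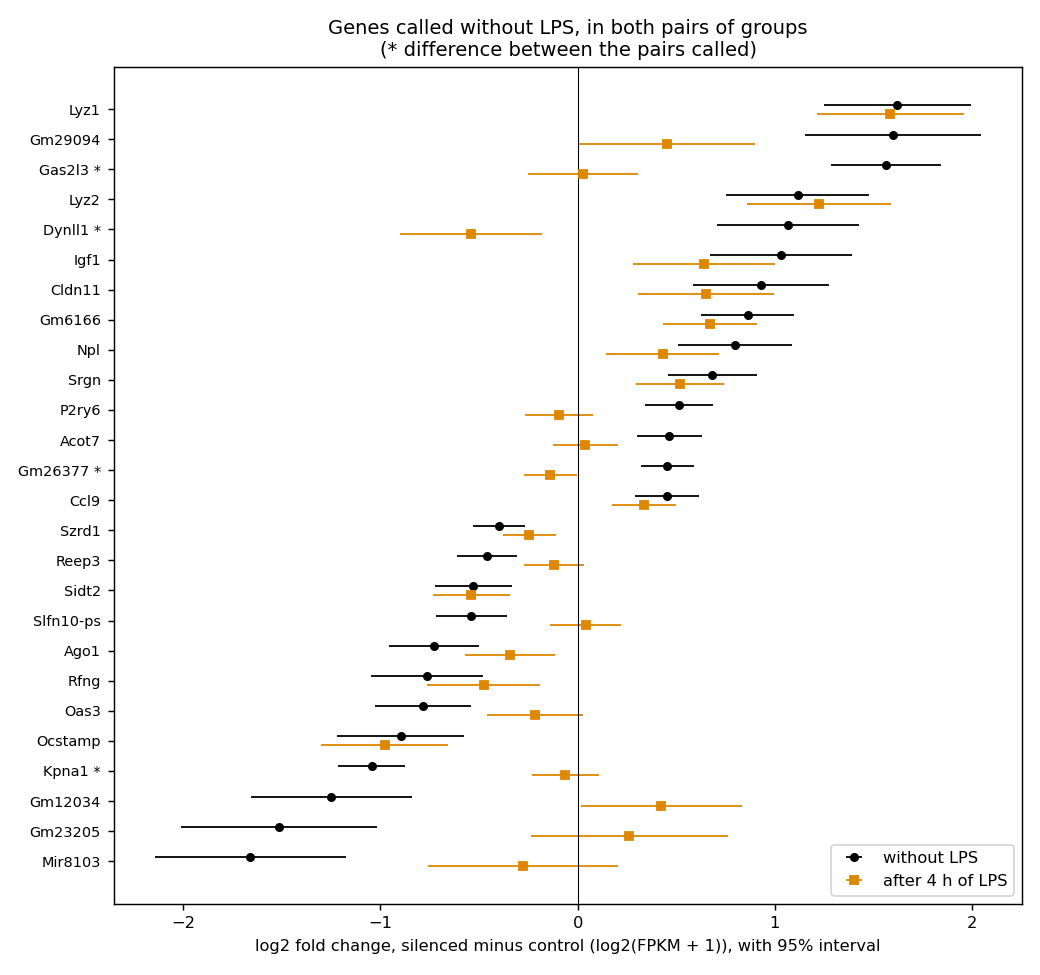
Log2 fold change (silenced minus control, log2(FPKM + 1) scale) with 95% intervals for 26 of the 28 genes called without LPS (black circles) and for the same genes after 4 h of LPS (orange squares); a star marks the 4 genes whose difference between the pairs was called. Lyz1 has 1.62 and 1.59 in the 2 pairs, whereas Gas2l3 has 1.57 and 0.03 and Kpna1 -1.04 and -0.06.

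Genes of the unfolded protein response, which expands the folding capacity of the ER, were mostly higher in silenced cells, although 0 of 32 tested were called (6 higher and 0 lower at an unadjusted p under 0.05). Of these 24 had positive fold changes, beside 51.5% of all genes, and 11 were higher without overlap and 0 lower, beside 9.86% and 8.35%. The median was 0.21. Hspa5, the ER chaperone BiP, had 212, 227 and 176 FPKM in control and 255, 278 and 250 FPKM in silenced libraries (0.35 ± 0.10, adjusted p = 0.203). Pdia6, a disulfide isomerase, had 61.7, 60.1 and 53.5 FPKM against 88.7, 90.3 and 76.3 FPKM (0.53 ± 0.11, adjusted p = 0.0801), and its relative Pdia3 had 0.38 ± 0.13. Control replicate 3 was the lowest control in all 3 genes, and without it the median of the list was 0.07. Sensors and stress factors lay on either side of 0 or near it, with Ern1 and Atf6 negative and the death-linked factor Ddit3 at 0.05 ± 0.21. After LPS the median of the list was -0.01.

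The ER stress response element (ERSE), searched as CCAAT, 9 bases of any kind and CCACG on both strands, was found in 8 of 28 promoters of this list (28.6%) and in 0.13% of all promoters. It stood in 5 of the 9 whose groups did not overlap. The Hspa5 sequence (GRCm38.p6, plus strand, chr2:34771840-34772089) is shown as the best known target, with its match in capitals, 65 bases before the start.
Hspa5 upstream: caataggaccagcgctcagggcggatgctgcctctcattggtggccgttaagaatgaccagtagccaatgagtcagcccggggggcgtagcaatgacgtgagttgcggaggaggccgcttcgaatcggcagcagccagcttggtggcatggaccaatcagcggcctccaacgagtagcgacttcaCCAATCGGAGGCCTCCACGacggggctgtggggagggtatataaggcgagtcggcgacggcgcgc

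Cholesterol synthesis genes were also mostly higher, with 0 of 26 called and 9 higher and 0 lower at an unadjusted p under 0.05. Of the 26, 22 had positive fold changes, beside 51.5% of all genes, and the median was 0.27. Without overlap 12 were higher and 0 lower, beside 9.86% and 8.35% of all genes. By library the list's medians were 0.02, -0.04 and -0.01 in control and 0.24, 0.19 and 0.19 in silenced cells, so no control reached the silenced range. Cyp51, which demethylates lanosterol, had 14.6, 14.7 and 17.3 FPKM in control and 22.6, 23.6 and 23.4 FPKM in silenced libraries (0.55 ± 0.10, adjusted p = 0.0607). Fdft1, squalene synthase, had 11.5, 8.73 and 12.7 FPKM against 14.5, 17.6 and 17.0 FPKM (0.54 ± 0.14, adjusted p = 0.167). Msmo1, a later enzyme of the pathway, had 0.34 ± 0.07 (adjusted p = 0.103). The regulator Srebf2 had -0.12 ± 0.09. Leaving out 1 of the 6 libraries without LPS gave medians between 0.19 and 0.26, and Cyp51 was called without control replicate 3. The sterol regulatory element (SRE), searched as TCACNCCAC, was in 1 of 19 promoters of the list (5.26%) and in 1.22% of all, and in 0 of the 8 whose groups did not overlap. After LPS the median was 0.08.

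**Figure D4:**
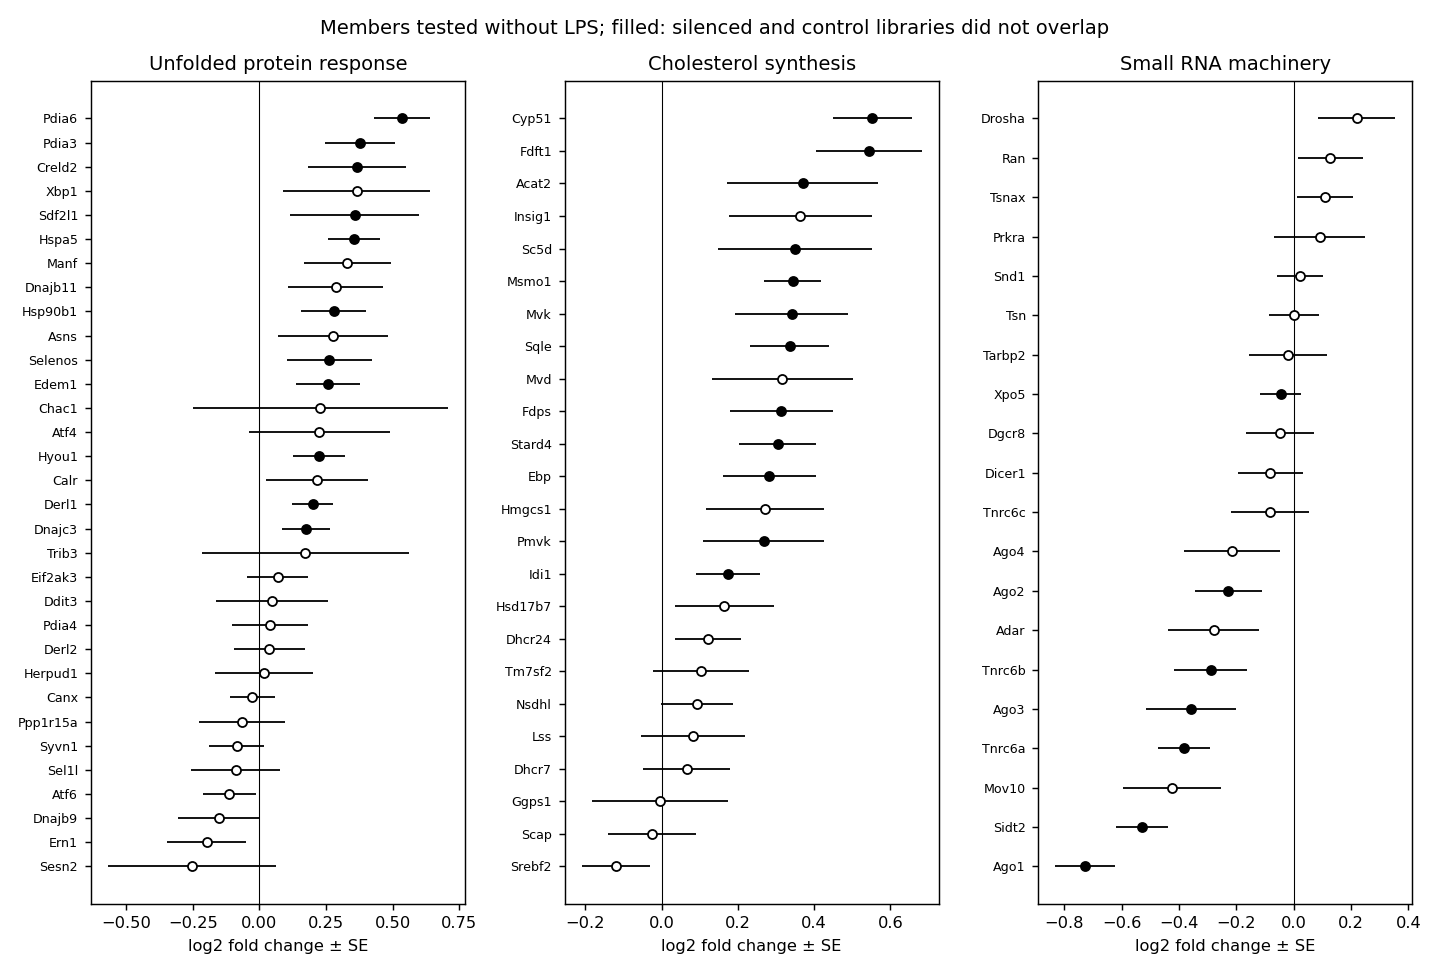
Log2 fold change without LPS with SE for tested members of the unfolded protein response (32), cholesterol synthesis (24 of 26) and small RNA machinery (20) lists; filled circles are members whose silenced and control libraries did not overlap. Filled circles lie right of 0 in the first 2 lists (11 and 12) and left of 0 in the third (7).

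Transport between ER and Golgi, the step at which TRAPP complexes act, had 0 of 59 genes called (7 higher and 2 lower at an unadjusted p under 0.05) and a median of 0.05. Groups did not overlap for 11 higher and 6 lower, beside 9.86% and 8.35% of all genes. Arf1, the GTPase that recruits the COPI coat, had 152, 153 and 139 FPKM in control and 191, 190 and 179 FPKM in silenced libraries (0.33 ± 0.07, adjusted p = 0.0883). Rab2a, a Golgi GTPase, had 0.32 ± 0.07 (adjusted p = 0.136), and Copz1, a COPI subunit, had 0.28 ± 0.08 (adjusted p = 0.206). For these 3 genes all silenced libraries lay above all controls. In the lysosome list 0 of 45 were called (10 higher and 2 lower unadjusted), with 8 higher and 3 lower without overlap, beside the same shares. The cathepsin gene Ctsz had 116, 118.4 and 133 FPKM in control and 184, 157 and 152 FPKM in silenced libraries (0.42 ± 0.08, adjusted p = 0.0801). The autophagy list, with 0 of 37 called (4 higher and 2 lower unadjusted), had a median of -0.02.

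The 20 genes with the next smallest p whose groups did not overlap, with adjusted p from 0.0507 to 0.0801, did not pass. Predicted, clone and pseudogene names were left out before the choice, although the clone name AC168977.1 stayed. The 20 genes comprised 15 higher and 5 lower and were taken at a mean of at least 5 FPKM in either group. Glrx and Gpr65 reached this mean only in silenced and Deptor and Pi4k2b only in control cells. Fabp5, a fatty acid carrier, had 9.73, 8.62 and 9.94 FPKM in control and 17.3, 20.3 and 13.98 FPKM in silenced libraries. Higher as well were the G protein regulator Rgs16, the redox enzyme Glrx, the hexokinase Hk3, the acid-sensing receptor Gpr65, the receptor Calcrl and Irf8, a factor of the monocyte lineage (6.01, 5.70 and 6.46 FPKM against 8.59, 8.51 and 10.3 FPKM). The translation terminator Etf1, the respiratory chain factor Cox7a2l, the proteasome subunit Psmb4, the protease inhibitor Spink5 and AC168977.1 were also higher, as were Cyp51, Pdia6 and Ctsz already given. Lower beside Trappc4 were Deptor, an inhibitor of mTOR (8.47, 7.33 and 6.69 FPKM against 4.04, 3.74 and 4.12 FPKM), the lipid kinase Pi4k2b, the ER tether Pdzd8 and Rnf213, a large ubiquitin ligase (58.2, 57.7 and 50.9 FPKM against 31.6, 34.5 and 31.1 FPKM). After LPS, Calcrl (0.59, adjusted p = 0.0368), Deptor (-0.76, adjusted p = 0.0387) and Spink5 (0.99, adjusted p = 0.0296) were called in the same direction.

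In the lists of LPS sensing and its signalling 0 members were called before the stimulus, beside 0.214% of all genes. Their unadjusted counts stand beside 6.57% of all genes higher and 5.4% lower. In the Toll-like receptor 4 list 0 of 28 were called (2 higher and 2 lower at an unadjusted p under 0.05), with a median of -0.01. The LPS co-receptor gene Cd14 was higher in every silenced library, with 190, 199 and 172 FPKM in control and 285, 322 and 265 FPKM in silenced libraries (0.63 ± 0.20, adjusted p = 0.247). In the ERK cascade list 0 of 22 were called (0 higher and 2 lower unadjusted, median -0.01), and Shc1 and Sos1, adaptors upstream of Ras, were lower without overlap (-0.23 ± 0.09 and -0.19 ± 0.08). ERK immediate-early and feedback genes had 0 of 24 called (2 higher and 2 lower unadjusted) and a median of 0.00, with Myc at -0.42 ± 0.14 (adjusted p = 0.284). In the list of NF-kB subunits and targets 0 of 28 were called (4 higher and 2 lower unadjusted), with Nfkbia at -0.38 ± 0.12 (adjusted p = 0.259). Inflammatory cytokines had 0 of 21 called (0 and 0 unadjusted) and a median of 0.00, but 5 of the 21 were listed at 0 in all 6 libraries and 12 stayed under 1 FPKM in each. These passed the filter on low values through the LPS-treated libraries, so their fold changes were fixed at 0 or had little room to differ from it, and the count and median say little about them. Tnf had 50.9, 47.0 and 53.3 FPKM in control and 44.7, 53.6 and 46.7 FPKM in silenced libraries, and its groups overlapped.

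The macrophage identity list had 1 of 23 records called, Lyz2, and a median of 0.10. Without overlap 5 were higher and 0 lower, beside 9.86% and 8.35% of all genes. Msr1, a scavenger receptor, had 27.1, 25.7 and 26.7 FPKM in control and 38.2, 37.5 and 30.2 FPKM in silenced libraries (0.40 ± 0.09, adjusted p = 0.137), and was called without silenced replicate 3. Genes of G1/S and replication had 0 of 33 called (1 higher and 0 lower at an unadjusted p under 0.05) and a median of 0.08. Without overlap 10 were higher and 1 lower, beside 9.86% and 8.35% of all genes. Pcna, the polymerase clamp, had 140, 139 and 129 FPKM against 157, 185 and 157 FPKM (0.28 ± 0.13, adjusted p = 0.407). In the Nrf2 and glutathione list 0 of 22 were called (3 higher and 2 lower unadjusted). The members with the smallest p, Gsr and G6pdx, which keep glutathione reduced, were lower without overlap (-0.61 ± 0.15 and -0.43 ± 0.12) while the median was 0.15. Glycolysis had 0 of 23 records called (3 higher and 0 lower unadjusted, median 0.09) and oxidative phosphorylation 0 of 40 (2 higher and 1 lower, median 0.02). The p53 targets had 0 of 31 (0 higher and 2 lower, median -0.04) and cholesterol efflux 0 of 10 (0 and 0, median -0.04). Among ribosomal protein genes 0 of 40 were called (6 higher and 1 lower unadjusted, median 0.06), and among mitochondrially encoded transcripts 0 of 15 (0 higher and 4 lower, median -0.13).

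**Figure D5:**
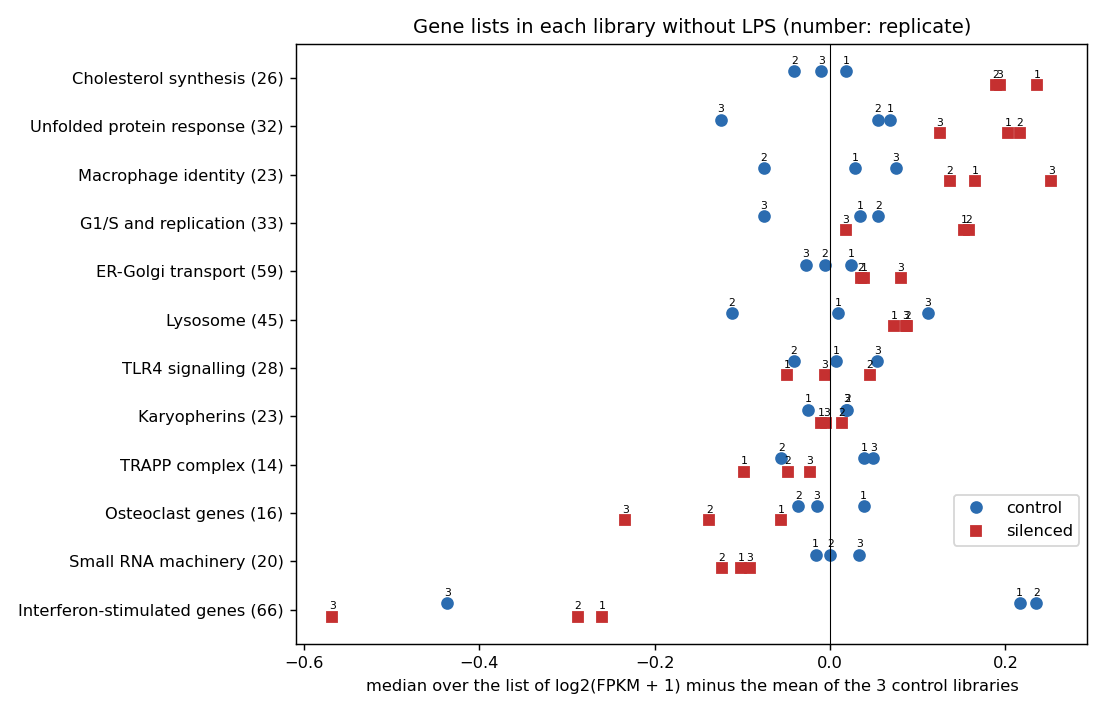
Median over each list of log2(FPKM + 1) minus the mean of the 3 control libraries, for the 3 control (blue circles) and 3 silenced (red squares) libraries without LPS, with the replicate number above each point and the number of tested records after each list name. For cholesterol synthesis no control reaches the silenced range, whereas for interferon-stimulated genes control replicate 3 at -0.44 lies between silenced libraries.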

How the data were processed

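The authors deposited gene FPKM for 53801 gene records and 12 libraries, with HISAT2, StringTie and GRCm38 named per the submitters' processing notes, without versions. The table holds no counts, so depth was estimated from the commonest low product of FPKM and transcript length over genes with 1 transcript, and can be wrong by a whole factor. On log2(FPKM + 1), limma 3.58.1 (R 4.3.3) estimated 4 group means from all 12 libraries, with an intensity trend and 8 residual degrees of freedom. The 13078 genes that reached 1 FPKM in 3 or more libraries were tested, and Benjamini-Hochberg adjusted p under 0.05 was called. Tests were 2-sided. The permutation test used scipy 1.17.1. Coordinates come from GENCODE M21 (53706 records matched) and upstream sequences from RefSeq, which held 15 of the 28 called genes. The genes named are Trappc4, every called gene (2 called genes and 2 of cholesterol synthesis are not reported here), the 20 next by p without overlap at a mean FPKM of at least 5 in either group, and for each of 40 lists its called members or up to 3 with the smallest p. The members and lists were chosen with earlier results of these data known. Itgam and Aldoa have 2 records each in the table, and each record was counted. Other settings covered the pseudocount, filter, scaling, block, fitted groups, trend, array weights, depth and leaving out each library.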

Additional observations from a re-analysis of the deposited data

Results flagged for a closer look

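For 4 genes the effect of silencing differed between cells without LPS and cells after LPS by a test of the difference itself (limma over all 12 libraries, adjusted over 13078 genes). The difference, as the log2 fold change after LPS minus that without LPS, was 0.98 for Kpna1, -1.54 for Gas2l3, -1.61 for Dynll1 and -0.594 for the short record Gm26377. All 3 silenced libraries lay outside the control range without LPS for each of them. After LPS, Kpna1 and Gas2l3 overlapped between groups, and Dynll1 and Gm26377 were lower in all 3 silenced libraries. These 4 were chosen from the genes called without LPS, so their fold changes there were large by that choice.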

How the results depend on the processing

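The 28 calls depended on the fit. There were 48 (34 higher, 14 lower) with the replicate number as a block across groups and 8 (7 higher, 1 lower) with it as a block within each LPS time. The numbers were not taken as pairs, since deviations of same-numbered libraries correlated at -0.03, 0.00 and 0.13 and control replicate 1 correlated best with silenced replicate 2. After LPS the same-numbered deviations correlated at 0.02, 0.04 and 0.19. Without LPS, control and silenced replicate 3 had the highest rank correlation of any pair (0.9719, beside up to 0.9716 within groups). Whether same-numbered replicates shared a factor was not tested. There were 6 (4 higher, 2 lower) with only the 6 libraries without LPS, 10 (5 higher, 5 lower) without the intensity trend, 66 (46 higher, 20 lower) with array weights and 9 (6 higher, 3 lower) with estimated depth as a covariate. Stricter filters on low values gave 27 and 26 higher calls. Leaving out 1 library gave 3 to 41 calls, 2 to 23 higher and 1 to 19 lower, and 20 to 23 of the 28 genes in the same direction after LPS. The causes were not tested. Trappc4 without LPS was between -1.201 and -0.8952 without 1 library, and passed the threshold with a stricter filter and with the filter over 6 libraries (-1.067 in both), with quantile normalization (-1.121), with array weights (-1.082) and without control replicate 3 of the LPS-treated cells. Of the named genes Blnk changed sign (-0.05924 to 0.1321 without 1 library). Other scalings moved the median of all genes by under 0.02. What depth limits was not tested, since the deposited values give it only roughly.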

Other observations

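Tlr4, which encodes the LPS receptor, varied within both groups more than between them. It had 2.18, 3.15 and 19.1 FPKM in the control and 15.7, 15.2 and 2.79 FPKM in the silenced libraries without LPS, so replicate 3 was high among controls and low among silenced libraries. Its log2 fold change was 0.65 ± 0.74, and no gene-level statement on it can be made from these libraries. After LPS it lay between 5.48 and 7.84 FPKM in control and had 1.82, 8.92 and 7.14 FPKM in silenced libraries. Tlr4 was chosen after its values were seen.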
